A study of Mus musculus with 8 samples.

Results

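The distance between Jmjd3 in stimulated macrophages and the histone mark H3K27me3 in untreated ones was measured from 2 of the 8 libraries of the study, Jmjd3 at 2 h and H3K27me3 at 0 h. Every one of the 4398 listed Jmjd3 positions was kept, and each was given the distance to the nearest of the 59684 listed H3K27me3 positions on its own chromosome. The cells were bone marrow-derived macrophages, phagocytes grown in culture from the marrow of female Fvb mice aged 6 to 8 weeks. For the Jmjd3 library they had received lipopolysaccharide, a bacterial cell wall component, and the cytokine interferon gamma for 2 h, and for the H3K27me3 library they were left untreated. The other libraries, used below for comparison, were H3K27me3 at 4 h, H3K4me3 at 0 and 4 h, and RNA polymerase II (Pol II) at 0, 2 and 4 h. Chromatin immunoprecipitation used 500000000 cells for Jmjd3 and 100000000 for each other library, and each combination of antibody and time was 1 library.

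Jmjd3 is a demethylase that takes methyl groups off lysine 27 of histone H3. That lysine is trimethylated by Polycomb repressive complex 2, and the resulting H3K27me3 marks silenced developmental genes and also promoters that carry the active mark H3K4me3 at the same time, called bivalent. Jmjd3 is known to be induced in macrophages by lipopolysaccharide. Its distance to H3K27me3 listed before stimulation describes how near its binding was to listed positions of its substrate. The H3K27me3 list holds single positions from height 9, so the distance does not show whether chromatin between them carried the mark.

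Each list gives a position and an overlap count, called height here, with no scaling stated. Jmjd3 heights ran from 9 to 96 with a median of 10, and H3K27me3 heights at 0 h from 9 to 397 with a median of 12. The labels state more than 10000000 uniquely mapped tags for each library, and exact depths were unknown. With 1 library per group, no p-value was computed. Brackets hold exact 95% binomial intervals, which cover counting error only and treat neighbouring positions as independent. Positions are on mm8 and no gene is named, since gene annotation of that build was not used here. The Pol II list at 0 h ended early on 7 chromosomes, and 114 Jmjd3 positions lie on those ends. All Jmjd3 positions on chromosome 11 before 3.2 Mb, 72 of them, lay in 1 short segment at the start of that chromosome, and 198 Jmjd3 positions overlapped all 7 other lists. Values are therefore given with and without them where they bear on a result.

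Jmjd3 positions were mostly far from the listed H3K27me3 positions of untreated cells. The median distance was 40.6 kb, the lower and upper quartiles were 9.25 and 102 kb, and the farthest position was 3.37 Mb away. Within 250 bp of an H3K27me3 position lay 394 Jmjd3 positions, 8.96% (8.13 to 9.84). A further 255, 5.80% (5.13 to 6.53), lay from 250 bp to 1 kb. The bin from 1 to 5 kb held 250 positions, 5.68% (5.02 to 6.41). The wider bins held most of the list: 615 positions from 5 to 20 kb (13.98%), 1769 from 20 to 100 kb (40.2%) and 1115 beyond 100 kb (25.4%).

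To set these shares against placement on the same chromosome, the share of all base positions in each bin was computed exactly for every chromosome, between its first and last listed position, and weighted by the Jmjd3 positions there. Jmjd3 exceeded it at both the shortest and the middle distances, with a gap between them. Within 250 bp the placement share was 1.32%, and the observed share was 6.81 times that (6.18 to 7.48). From 250 bp to 1 kb the factor was 2.02 (1.79 to 2.28). From 1 to 5 kb Jmjd3 was slightly below placement, with 5.68% against 6.45%, a factor of 0.882 (0.778 to 0.994). The factor rose again to 1.15 (1.07 to 1.24) from 5 to 20 kb and 1.44 (1.39 to 1.49) from 20 to 100 kb. Beyond 100 kb it was 0.515 (0.489 to 0.541), since 49.3% of the chromosomes' positions but 25.4% of the Jmjd3 positions lay that far away. Placement covered unmappable sequence too, which can raise the factors at short range.

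**Figure D1:**
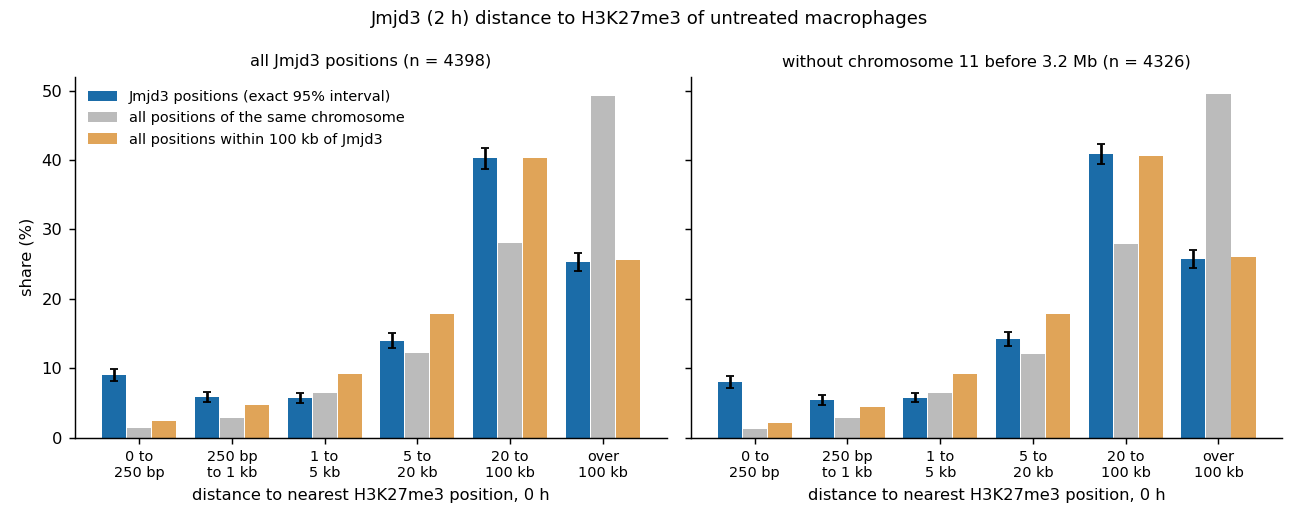
Share of Jmjd3 positions (%) in each bin of distance to the nearest H3K27me3 position of untreated cells (blue, exact 95% intervals), beside the share of all positions of the same chromosomes (grey) and of all positions within 100 kb of a Jmjd3 position (orange). The blue bar stands above both others within 250 bp, and the blue and orange bars are at 40.2% and 40.3% from 20 to 100 kb in the left panel.

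A second placement, over all positions within 100 kb of each Jmjd3 position, keeps the local density of H3K27me3. Against it no middle-range excess was seen. The window itself reaches 100 kb, so a factor near 1 at that range is partly fixed by construction. Within 20 kb the observed share was 34.4% and the local share 34.1%, a factor of 1.01 (0.969 to 1.05), and within 100 kb the factor was 1.00 (0.985 to 1.02). The close excess was smaller and was still there, at 3.78 times (3.43 to 4.15) within 250 bp and 1.22 times (1.075 to 1.37) from 250 bp to 1 kb. From 1 to 5 kb Jmjd3 was below the local share at 0.624 times (0.551 to 0.704), and from 5 to 20 kb at 0.784 times (0.727 to 0.843). Bins are exclusive, so a position counted close cannot be counted farther away. The factor within 20 kb thus adds up the close excess and the lower shares from 1 to 20 kb.

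Within 1 kb the positions crowded toward H3K27me3. At 0 bp, the identical coordinate, there were 5 Jmjd3 positions, and from 1 to 10 bp there were 66, or 6.60 per bp of distance. The number per bp was 2.63 from 11 to 50 bp, 1.64 from 51 to 100 bp, 0.680 from 201 to 250 bp and 0.240 from 751 to 1000 bp. The nearest H3K27me3 position was on either side, at the lower coordinate for 37 and at the higher for 29 of the positions at 1 to 10 bp. Of the 71 positions at 10 bp or less, 30 overlapped all 7 other lists, 4 were in the chromosome 11 segment and 41 were neither. Among positions that were neither, the number per bp also fell with distance, from 3.90 at 1 to 10 bp to 0.212 at 751 to 1000 bp.

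The chromosome 11 segment was dense in every list. Its 72 Jmjd3 positions ran from 3000467 to 3099135, and 66 H3K27me3 positions of untreated cells ran from 3000458 to 3099890. Pol II lists held 90 positions at 0 h, 90 at 2 h and 85 at 4 h before 3.2 Mb, and H3K4me3 11 clusters at 0 h. These Jmjd3 positions were tall, with a median height of 37.5, and 55 of the 145 Jmjd3 positions of height 30 or more in the genome were there. Their median distance to H3K27me3 was 96 bp. Within 250 bp lay 49 of the 72 (68.1%, 56.0 to 78.6), against 32.8% of all positions of the segment itself. The last Jmjd3 position before the limit was 3099135 (height 35, 31 bp from H3K27me3), and the first after it was 3335990 (height 9, 81.6 kb away).

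Without this segment 4326 Jmjd3 positions remained and the shape of the distances was the same. Within 250 bp lay 345 of them (7.98%, 7.18 to 8.82), 6.16 times placement (5.55 to 6.81), and the median distance was 42.4 kb. From 250 bp to 1 kb the factor was 1.91 (1.68 to 2.17), and from 1 to 5 kb it was 0.901 with an interval that includes 1 (0.795 to 1.02). Against placement within 100 kb the factor within 250 bp was 3.90 (3.51 to 4.31). Without the 198 positions overlapping all 7 lists as well, 5.37% lay within 250 bp, 4.14 times placement. That is lower by definition, since each removed position was at H3K27me3.

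Jmjd3 height went with proximity at short range and little at long range. Of the 1426 positions at the lowest height, 9, 72 lay within 250 bp of H3K27me3, 5.05% (3.97 to 6.32). The 850 positions of height 10 had 5.06% (3.68 to 6.75) and the 1152 of height 11 to 13 had 7.99% (6.49 to 9.70). Among the 970 of height 14 to 96 it was 19.3%. The tallest class exceeded the lowest by 14.2 percentage points within 250 bp (95% Wald interval 11.5 to 17.0), by 15.1 within 5 kb (11.6 to 18.6) and by 3.99 within 100 kb (0.529 to 7.45).

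The share rose most steeply among the tallest positions. Heights 14 to 19 had 9.98% (7.71 to 12.7) of 601 positions within 250 bp and heights 20 to 29 had 19.2% (14.3 to 24.97) of 224. Of the 145 positions of height 30 to 96, 84 lay within 250 bp (57.9%, 49.5 to 66.1), and their median distance was 0.146 kb against 45.5 kb at height 9. Of those 145, 76 overlapped all 7 lists. Without the chromosome 11 segment, 43 of 90 such positions lay within 250 bp (47.8%, 37.1 to 58.6), and the tallest class exceeded the lowest by 10.3 points (7.67 to 12.9). Without the segment and without positions overlapping all 7 lists, the difference within 250 bp was 4.99 points (2.83 to 7.15), from 3.65% to 8.64%, the positions of height 30 to 96 had 13.5% (5.59 to 25.8) of 52, and within 20 kb it was 1.24 points with an interval that includes 0 (-2.77 to 5.24). Removing positions that overlap all 7 lists takes away close positions by definition, and takes more of them from the tallest class.

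**Figure D2:**
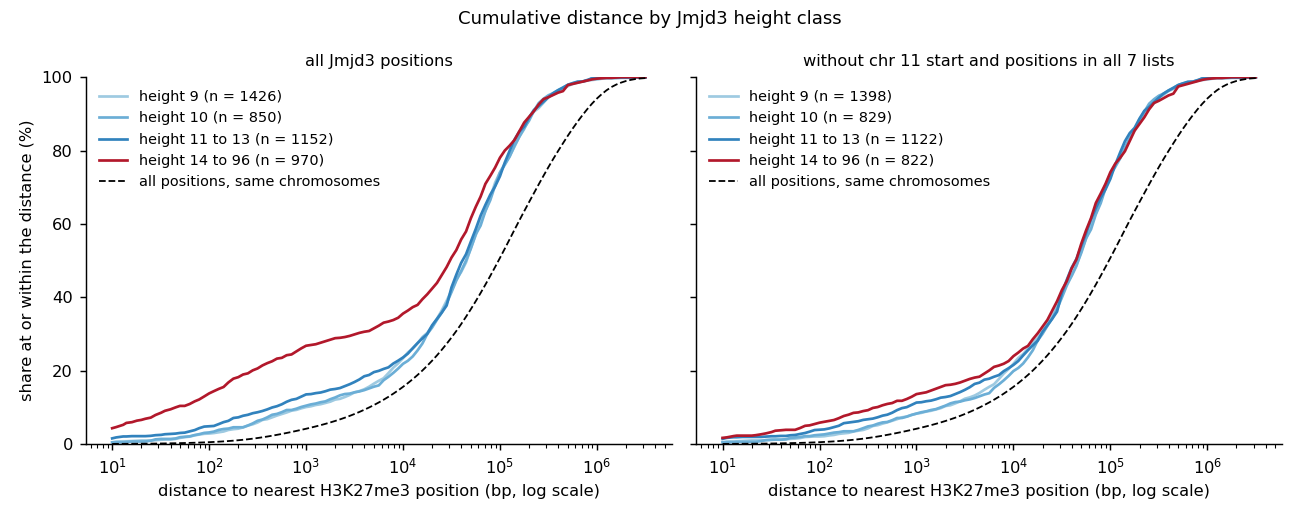
Cumulative share of Jmjd3 positions (%) at or within a distance of H3K27me3 (bp, log axis), by Jmjd3 height class, with the share of all positions of the same chromosomes dashed. In the left panel the class of height 14 to 96 reaches 19.3% at 250 bp against 5.05% for height 9, and in the right panel, without the chromosome 11 segment and positions in all 7 lists, 8.64% against 3.65%.

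The tallest Jmjd3 positions were next to H3K27me3. Position 146565410 on chromosome 5 (height 96) was 18 bp from an H3K27me3 position of height 191, and position 69864537 on chromosome 4 (height 85) was 10 bp from one of height 83. Position 75723144 on chromosome 12 (height 63) and position 21832183 on chromosome 10 (height 61) were each 1 bp from one, of heights 87 and 41. These 4 positions overlapped all 7 lists. The 10 tallest were all within 590 bp of H3K27me3, 3 of them in the chromosome 11 segment. All but 2 of the 10 overlapped all 7 lists, which puts H3K27me3 less than 500 bp away by definition. The exceptions were position 3151521 on chromosome 6 (height 57, 590 bp away) and position 165333500 on chromosome X (height 56, 106 bp away).

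Some tall positions lay far from H3K27me3. Beyond 100 kb the tallest was position 33816920 on chromosome 10 (height 39), 222 kb from the nearest H3K27me3 position, followed by position 125679599 on chromosome 5 (height 39) at 126 kb and position 83478868 on chromosome 11 (height 36) at 139 kb. From 20 to 100 kb the tallest was position 27055797 on chromosome 12 (height 47), at 54.9 kb. From 1 to 5 kb it was position 117785160 on chromosome 11 (height 43), 1187 bp away. The farthest of all was position 21601251 on chromosome 15, of height 11, and the next farthest was position 75642328 on chromosome 3, of height 12 and 2.50 Mb away.

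Jmjd3 height and the height of the H3K27me3 position next to it rose together when all positions were counted. Little rank correlation was left without the segment and the positions in all 7 lists. Over the 394 positions within 250 bp, the pair of heights had a Pearson correlation of 0.493 and a Spearman correlation of 0.356. Over the 224 positions in neither the chromosome 11 segment nor all 7 lists these were 0.224 and 0.0829. The points share sequence and local tag mappability, and the values are a description. The nearest H3K27me3 position had a median height of 17 for Jmjd3 within 250 bp, 15 from 250 bp to 1 kb, 12 from 1 to 5 kb and 11 in each bin beyond 5 kb.

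Jmjd3 positions that lay under 5 kb apart were joined into 3434 loci, 544 of which held several positions. H3K27me3 within 250 bp was found at 7.92% (6.96 to 8.97) of the 2890 loci of a single position, 11.8% (8.73 to 15.6) of the 372 loci of 2, 18.2% (12.01 to 25.8) of the 132 loci of 3 or 4, and 11 of the 40 loci of 5 or more (27.5%, 14.6 to 43.9). The chromosome 11 segment supplied 2 of those 11 loci. These were the largest locus of all, 66 positions from 3022273 to 3099135, and 6 positions from 3000467 to 3004584. A locus with more positions has more chances to be close. The larger loci ranged from all positions close to H3K27me3 to none. On chromosome 7, from 37885201 to 37909781, all 16 positions lay within 5 kb of H3K27me3, 9 of them within 250 bp. On chromosome X, from 165331136 to 165352805, all 14 did, 8 of them within 250 bp. On chromosome 2, from 28355832 to 28364392, 4 of 8 positions lay within 5 kb. The 14 positions from 27028372 to 27045394 on chromosome 12, as tall as 45, were at least 27.4 kb from H3K27me3. The 11 positions from 83343383 to 83359869 on chromosome 11 were at least 64.4 kb away, and the 11 from 101932829 to 101945577 on chromosome 14 at least 446 kb away.

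Chromosome X stood apart from the autosomes. Of its 59 Jmjd3 positions, 31 lay within 250 bp of H3K27me3 (52.5%, 39.1 to 65.7) and 48 within 5 kb (81.4%, 69.1 to 90.3), where 10.7% of the chromosome's positions lay within 5 kb. The 17 Jmjd3 positions beyond 165 Mb, a limit chosen after seeing the data, were all within 5 kb. Among these 17, 14 were the single locus from 165331136 to 165352805, so they are not separate sites. Of the 42 before 165 Mb, 31 lay within 5 kb (73.8%, 57.96 to 86.1). Among those 42, 17 overlapped all 7 lists and so were close by definition.

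On the autosomes the share within 5 kb ran from 12.5% (8.00 to 18.3) on chromosome 19 to 27.1% (23.3 to 31.2) on chromosome 11, and was above the chromosome's own share on all 19. The margin on chromosome 19 was small, 12.5% against 12.1%. On chromosomes 6, 9 and 15 too, the interval included the chromosome's own share. On chromosome 11 it rested on the segment at its start: among the 441 positions after 3.2 Mb, 15.4% (12.2 to 19.1) lay within 5 kb, against 17.3% of that chromosome's positions. Within 250 bp those 441 still had 4.99% (3.15 to 7.46) against 2.42%.

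**Figure D3:**
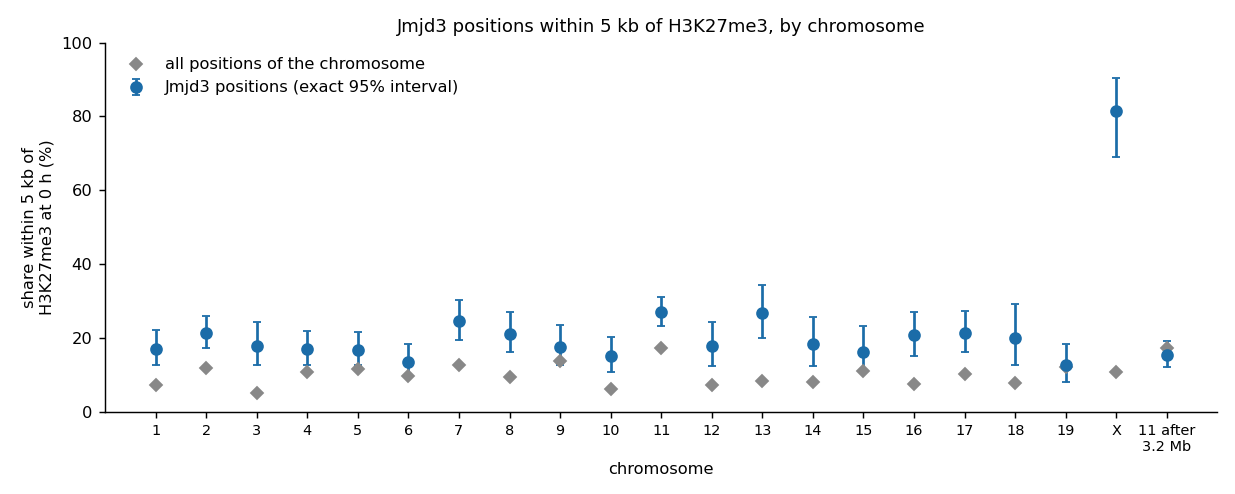
Share of Jmjd3 positions within 5 kb of H3K27me3 (%, blue points with exact 95% intervals) for each chromosome, beside the share of all positions of that chromosome (grey diamonds). Chromosome X reaches 81.4%, and chromosome 11 after 3.2 Mb, at the right, lies at 15.4% with its diamond at 17.3%.

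The other marks at the Jmjd3 positions were compared between the distance bins. A Jmjd3 position counted as overlapping Pol II or H3K27me3 when less than 500 bp away, and as overlapping an H3K4me3 cluster when within 250 bp of it. H3K4me3 of untreated cells, the promoter mark, overlapped 88.1% (347 of 394) of Jmjd3 positions within 250 bp of H3K27me3, 76.4% (191 of 250) at 1 to 5 kb and 82.0% (914 of 1115) beyond 100 kb. The closest bin had the highest share with all positions counted. Without positions overlapping all 7 lists, which are at H3K4me3 by definition, it had 80.1% (74.4 to 84.98), below the 82.0% beyond 100 kb.

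Pol II, the enzyme that transcribes protein-coding genes, was listed less often at 0 h for Jmjd3 positions between 250 bp and 5 kb from H3K27me3 than for more distant ones. Leaving out the 7 chromosome ends, it overlapped 65.0% (59.9 to 69.8) of the 371 positions within 250 bp, 58.4% (52.0 to 64.7) of 243 from 250 bp to 1 kb and 56.9% (50.5 to 63.2) of 246 from 1 to 5 kb. From 5 to 20 kb it overlapped 73.9% (70.2 to 77.4) of 598, and beyond 100 kb 69.1% (66.3 to 71.9) of 1102. Leaving out positions in all 7 lists, with the ends kept, the share was 35.2% (29.1 to 41.6) within 250 bp, against 61.2% (56.2 to 66.01) with them, and 47.4% (40.6 to 54.3) against 55.7% from 250 bp to 1 kb. These positions have Pol II at 0 h by definition, and without them the closest bin was the lowest. At 2 h the Pol II shares were closer to each other, with 81.7% within 250 bp, 76.4% from 1 to 5 kb and 79.4% beyond 100 kb.

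Jmjd3 positions overlapping Pol II at 2 h but not at 0 h made up 15.5% of the list without the 7 chromosome ends, and 17.3% with them. Without the ends the share was 21.6% (17.5 to 26.1) within 250 bp, 21.4% (16.4 to 27.1) from 250 bp to 1 kb and 21.95% (16.9 to 27.7) from 1 to 5 kb. It was 12.5% (9.99 to 15.5) from 5 to 20 kb, 14.7% from 20 to 100 kb and 13.4% (11.5 to 15.6) beyond 100 kb. With positions in all 7 lists kept, the step lay at 5 kb, and the bin in which Jmjd3 was below placement was on its higher side. Without them the share fell from bin to bin up to 20 kb, as follows. Leaving out positions in all 7 lists, with the ends kept, gave 42.8% (36.4 to 49.4) within 250 bp, 28.8% from 250 bp to 1 kb, 22.8% from 1 to 5 kb and 14.5% from 5 to 20 kb, higher at short range by definition, since each position left out had Pol II at 0 h. The reverse, Pol II at 0 h but not at 2 h, was rarer, at 3.59% of the list without the ends. It was 4.85% (2.90 to 7.56) within 250 bp, 6.17% (3.50 to 9.98) from 250 bp to 1 kb and 2.44% from 1 to 5 kb. Beyond 100 kb it was 3.18% (2.22 to 4.39). Leaving out positions in all 7 lists, with the ends kept, it was 7.63% (4.58 to 11.8) within 250 bp and 3.14% (2.20 to 4.34) beyond 100 kb. The Pol II lists differ in length and lowest height, 55600 positions from height 9 at 0 h and 57200 from height 10 at 2 h, and whether the step comes with Pol II level was not tested.

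**Figure D4:**
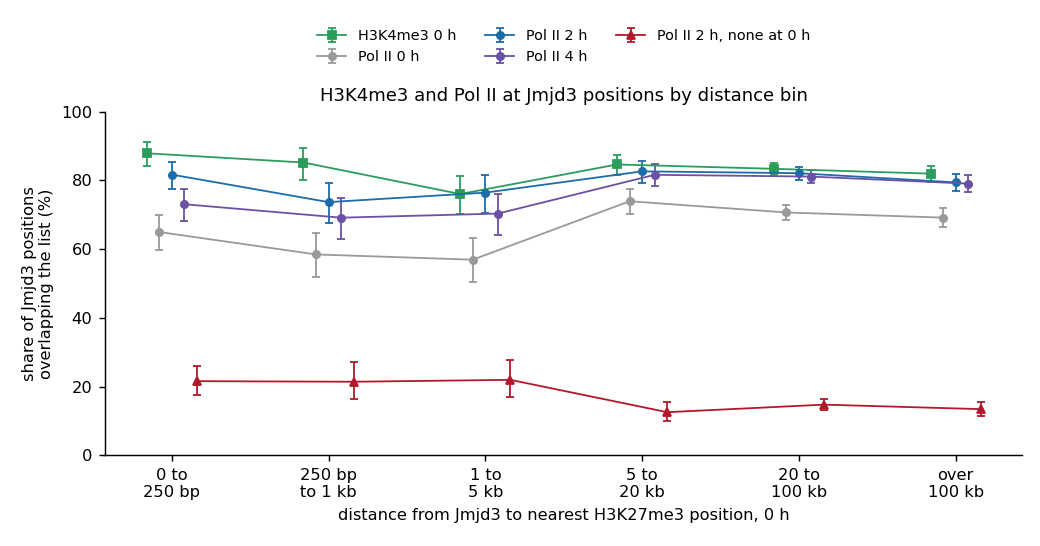
Share of Jmjd3 positions (%) that overlap H3K4me3 or Pol II in each bin of distance to H3K27me3, without the 7 chromosome ends at which the Pol II list at 0 h stops early, with exact 95% intervals. Pol II at 0 h is at 56.9% from 1 to 5 kb and 65.0% within 250 bp, an order that turns without positions in all 7 lists, and overlap with Pol II at 2 h but not at 0 h is above 21% in the 3 bins up to 5 kb and at most 14.7% in those beyond.

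Since most Jmjd3 positions lay in H3K4me3 clusters, they were set against other Pol II positions in such clusters. Jmjd3 was nearer to H3K27me3 at short range and not at 100 kb. Of the 3643 Jmjd3 positions inside an H3K4me3 cluster of untreated cells, 9.53% (8.59 to 10.5) lay within 250 bp of H3K27me3, against 3.91% of 17047 Pol II positions at 2 h that were in such clusters and had no Jmjd3. The difference was 5.62 points (4.62 to 6.61) within 250 bp, 2.87 (1.17 to 4.57) within 20 kb and -0.772 (-2.32 to 0.775) within 100 kb. Without Jmjd3 positions in all 7 lists, a removal that lowers it by definition, the difference within 250 bp was 1.58 points (0.765 to 2.39). The 755 Jmjd3 positions outside the clusters had 6.23% (4.61 to 8.19) within 250 bp. All 72 positions of the chromosome 11 segment were inside clusters, and without them the share inside was 8.35% (7.46 to 9.30).

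The difference from Pol II was largest where Pol II was low. Of Pol II positions of height 10 to 19 in the clusters, 29.8% of those with Jmjd3 less than 500 bp away were within 250 bp of H3K27me3, against 5.34% of those without. At heights 20 to 45 the shares were 26.9% and 4.08%, at 46 to 99 they were 12% and 3.32%, and at 100 to 402 they were 2.58% and 2.10%. The chromosome 11 segment and the positions in all 7 lists weighed on this comparison. Without both, Pol II positions with Jmjd3 had 3.8% within 250 bp and those without 3.87%, and the shares at the lowest height were 21.1% and 5.30%. The removal lowers the share with Jmjd3 by definition.

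**Figure D5:**
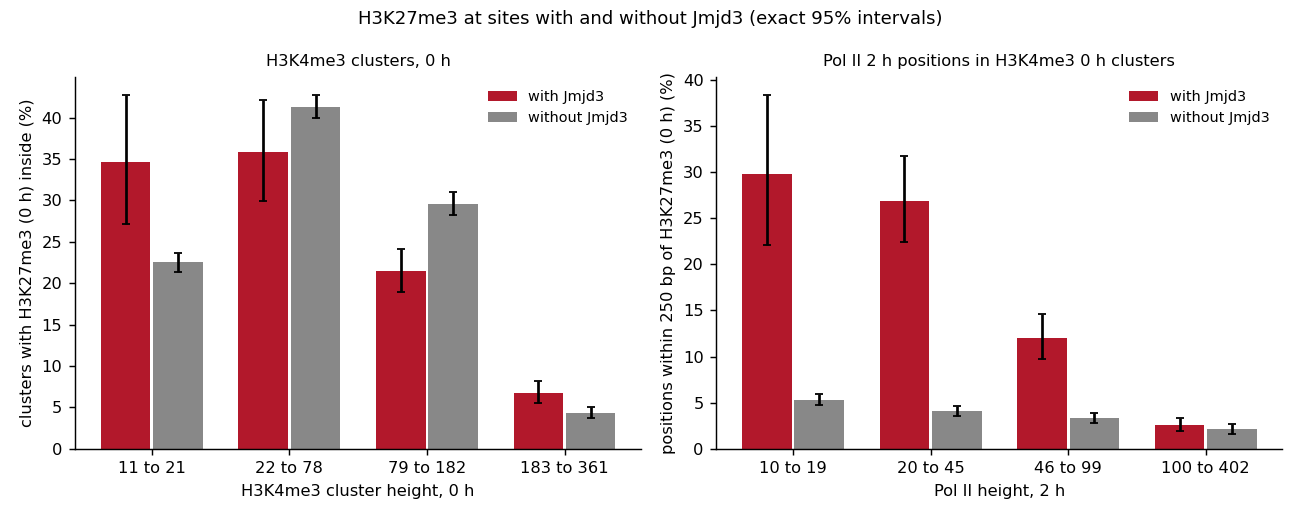
Share (%) of Pol II positions at 2 h in H3K4me3 clusters that lie within 250 bp of H3K27me3, by Pol II height, and of H3K4me3 clusters of untreated cells that hold H3K27me3, by cluster height, with Jmjd3 and without, with exact 95% intervals. Jmjd3 goes with a higher share at low Pol II height (29.8% against 5.34%) and with a lower share in clusters of height 79 to 182 (21.5% against 29.6%).

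Counted by whole cluster, a different unit without the limit of 250 bp, the share with H3K27me3 was lower with Jmjd3. An H3K27me3 position lay inside 462 of the 2913 H3K4me3 clusters of untreated cells that held Jmjd3 (15.9%, 14.6 to 17.2), and inside 4720 of the 18505 without Jmjd3 (25.5%, 24.9 to 26.1). The difference was -9.65 points (-11.1 to -8.18). Without clusters holding Jmjd3 positions in all 7 lists it was -14.3 points (-15.6 to -13.0). Such positions have H3K27me3 less than 500 bp away by definition, and their clusters are kept in the classes below. The clusters differed in height too, with medians of 185 with Jmjd3 and 57 without, and weighted to the same 4 height classes the difference was -1.44 points with an interval that includes 0 (-2.90 to 0.00947). In the lowest class, heights 11 to 21, H3K27me3 was more frequent with Jmjd3 (34.6%, 27.1 to 42.7) than without (22.5%, 21.4 to 23.6), as it was at heights 183 to 361 (6.76% and 4.35%). In the classes between, 22 to 78 and 79 to 182, it was less frequent with Jmjd3 (35.9% against 41.3%, and 21.5% against 29.6%).

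By cluster width, H3K27me3 was more frequent with Jmjd3 in the narrowest class and less frequent in the other 3. In the narrowest class, 315 to 1882 bp, 92 of 180 clusters with Jmjd3 held H3K27me3 (51.1%, 43.6 to 58.6), against 19.03% without Jmjd3. In the widest, 3979 to 25640 bp, the shares were 13.01% and 23.3%.

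The closeness of Jmjd3 to H3K27me3 was also measured with the list at 4 h, after stimulation. That list is longer, with 89093 positions from height 10. Within 250 bp of it lay 373 Jmjd3 positions (8.48%, 7.67 to 9.34), 4.41 times placement against 6.81 for the list at 0 h. Cut to the length of the 0 h list by height, it had 320 (7.28%, 6.53 to 8.08), 5.54 times placement, and the median distance was 48.6 kb against 40.6 kb. Fewer Jmjd3 positions were thus within 250 bp of H3K27me3 at 4 h than at 0 h in lists of equal length. This is from 1 library at each time, with no replicate check. The cut 4 h list had lower shares at wider ranges too. They were 17.6% against 20.4% within 5 kb and 70.1% against 74.6% within 100 kb.

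Jmjd3 positions mostly kept their distance class. Of the 394 within 250 bp at 0 h, 278 were within 250 bp of a 4 h position (70.6%) and 336 within 1 kb, while 11 were over 100 kb from any. Of the 1115 beyond 100 kb at 0 h, 843 were still beyond 100 kb at 4 h (75.6%) and 7 were within 250 bp. For scale, 28.3% of all 59684 H3K27me3 positions at 0 h had no 4 h position less than 500 bp away. The limits differ, and keeping the class is not shown to be particular to Jmjd3.

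Seen from H3K27me3, positions of untreated cells near Jmjd3 were absent from the 4 h list less often than distant ones when all were counted, and they were taller. The order was no longer seen when the chromosome 11 segment and the positions at Jmjd3 in all 7 lists were both left out. Of all 59684, 28.3% had no 4 h position less than 500 bp away, called lost here. Among the 394 within 250 bp of Jmjd3, 78 were lost (19.8%, 16.0 to 24.1), and among the 41221 beyond 100 kb 29.5% (29.1 to 29.96). Without the segment alone the order within 250 bp was kept, with 73 of 345 lost (21.2%, 17.0 to 25.9). Without the segment and the positions at Jmjd3 in all 7 lists, 73 of 224 within 250 bp were lost (32.6%, 26.5 to 39.2) and 72 of 233 from 250 bp to 1 kb (30.9%, 25.03 to 37.3). Both of these intervals include the 29.5% beyond 100 kb. A Jmjd3 position in all 7 lists has H3K27me3 of 4 h less than 500 bp away by definition, so leaving these out favours higher shares. With all counted, the difference of all within 1 kb from those beyond 100 kb was -6.91 points (-10.1 to -3.73). Median heights were 17 within 250 bp and 11 beyond 100 kb, and a low position is more often lost, so the shares were also compared at like height. Weighted to the same height classes, the difference was 1.90 points in the opposite direction, with an interval that includes 0 (-1.27 to 5.06).

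In single height classes the order of near and far positions varied. At heights 9 and 10, 46 of 78 positions within 250 bp of Jmjd3 were lost (58.97%, 47.3 to 69.99), against 46.2% (45.4 to 46.98) beyond 100 kb. At heights 11 and 12, 27.8% (14.2 to 45.2) of 36 were lost within 250 bp, 48.8% (32.9 to 64.9) of 41 from 250 bp to 1 kb and 37.2% (29.1 to 45.9) of 137 from 1 to 5 kb, against 29.6% (28.6 to 30.6) beyond 100 kb. At heights 18 to 397, 11 of 195 were lost (5.64%, 2.85 to 9.87), against 9.43% (8.83 to 10.1). A position kept in the list at 4 h can differ in height, and heights of the pair of libraries are on no shared scale.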

How the data were processed

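Chromatin from mouse bone marrow-derived macrophages was immunoprecipitated and sequenced, with fragments of about 200 to 300 bp per the labels. The deposited peak lists, 1 per library, give an overlap count, a signal that the authors left without stated scaling, per the file headers. H3K4me3 is in clusters and every other list holds single positions. The build is mm8, per the submitters' processing notes, and the sources used here do not give the caller, threshold or control. Exact depths were unknown.

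Distances were taken to the nearest position on the same chromosome, in bins with edges at 250 bp and 1, 5, 20 and 100 kb, upper edges included. Placement was computed as an exact share of positions, with no random draws. Intervals are Clopper-Pearson, and Wald for differences. Height classes were bounded by quartiles, with equal heights kept together. A list was taken to stop early when it ended over 1 Mb before the others of its antibody. Named positions are from the top of fixed orders (the 10 tallest, the 5 tallest per bin, the 5 farthest), and loci from the largest.

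The members, the distance bins and the positions left out were chosen with earlier results of these data known. Distances, tested on simulated lists, were computed with numpy 2.4.6 and scipy 1.17.1 in Python 3.11.15. No sequence or gene is printed, since no genome of this build was used here.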

Additional observations from a re-analysis of the deposited data

How the results depend on the processing

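The share of Jmjd3 positions within 250 bp of H3K27me3 was 8.96% and 6.81 times placement. It was 7.98% and 6.16 times without chromosome 11 before 3.2 Mb, 7.86% and 6.07 times without the first 200 kb of every chromosome, 5.62% and 4.29 times without positions overlapping all 7 lists, and 5.37% and 4.14 times without both the segment and those positions. With H3K27me3 above its median height it was 6.37% and 11.2 times, and with Jmjd3 above its median height 13.1% and 9.79 times. The factor was 3.78 against placement within 100 kb. With the 4 h list it was 4.41, and with its tallest positions 5.54 at a share of 7.28%.

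Within 5 kb the share was 20.4% and 1.92 times placement. The share was 19.1% without the segment, and share and factor were 18.9% and 1.80 without the first 200 kb, 14.5% and 2.77 for tall H3K27me3, 25.1% and 2.32 for tall Jmjd3, 18.1% and 1.73 for merged loci, 16.7% and 1.58 without positions in all 7 lists, 17.6% and 1.76 with the equal-length 4 h list, and 16.1% and 1.53 without both. The factor was 1.26 within 100 kb and 1.48 with the whole 4 h list.

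The tallest class exceeded the lowest by 14.2 points within 250 bp and 15.1 within 5 kb. These were 10.3 and 9.81 without the segment, 27 and 31.3 with finer classes (10 planned, 7 left once equal heights were kept together), 6.13 and 7.06 without positions in all 7 lists, 11.4 and 9.42 for loci, and 4.99 and 4.49 without both. Jmjd3 minus Pol II (5.62 points) was 4.48 without the segment and 1.58 without positions in all 7 lists. Clusters with minus without Jmjd3 (-9.65 points) came to -1.44 within height classes and -14.3 without clusters holding positions in all 7 lists. Loss within 1 kb minus beyond 100 kb (-6.91 points) was 1.90 within height classes, where near and far positions are compared at like height. For the other changes the cause was not tested. The differences listed here, other than that of loss, kept their direction under the alternatives listed here. The separate comparison of Pol II positions with and without Jmjd3 is not among them. Without both the segment and positions in all 7 lists, its shares within 250 bp were nearly equal.

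Leaving out the segment and positions in all 7 lists together, the height and width classes of clusters, the clusters holding such positions, the Pol II comparison without them and the 7 chromosome ends were alternatives chosen after seeing the data. With unknown depth and 1 library per group, positions under the lowest listed height of 9 to 11 were not detectable. No paired analysis was possible because each group is 1 library.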

Other observations

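H3K27me3 positions next to Jmjd3 more often stood alone. No other H3K27me3 position lay within 5 kb for 181 of the 394 positions of untreated cells within 250 bp of Jmjd3 (45.9%, 40.9 to 51), against 19.1% of all 59684. The share was 27.2% (22.1 to 32.7) from 250 bp to 1 kb, 11.9% (9.63 to 14.6) from 1 to 5 kb and 20.8% beyond 100 kb. Without chromosome 11 before 3.2 Mb it was 52.5% (47.0 to 57.8) within 250 bp. At like height the order was the same, with 66.7% against 30.97% at heights 9 and 10, and 39.0% against 9.52% at heights 18 to 397, for positions within 250 bp of Jmjd3 and beyond 100 kb.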
